A study of Mus musculus with 18 samples.

Results

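The inhibitors of cyclin-dependent kinases were followed in liver RNA sequencing of 18 female mice. Members were the 7 genes of the CIP/KIP family (Cdkn1a, Cdkn1b, Cdkn1c) and of the INK4 family (Cdkn2a, Cdkn2b, Cdkn2c, Cdkn2d), found in the gene count table by Ensembl identifier and symbol. Of the 37620 genes in the table, 6 were members, 4 of which had enough counts to be among the 14226 genes tested; Cdkn2d was matched to no row and was not analysed here. There were 6 old mice given ouabain (a cardiac glycoside, an inhibitor of the sodium-potassium pump), 6 old mice given vehicle (saline) and 6 young mice with no treatment. Old mice were 24 months of age and young mice 7 weeks. Treatment began at 21 to 22 months of age and ran for 12 weeks, with 4 treatments in a treated week (1 mg/kg in the ouabain group), 2 weeks of rest between rounds and cull 3 days after the last round. No strain is named in the labels. The design text speaks of 16 old mice, 12 of which were analysed here. Young and old mice differed in handling as well as age, and these cannot be told apart.

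The cell cycle passes from G1 to S phase when cyclin D with Cdk4 or Cdk6, and then cyclin E with Cdk2, phosphorylate the retinoblastoma protein and release E2F transcription factors. INK4 proteins bind Cdk4 and Cdk6 and block their pairing with cyclin D, while CIP/KIP proteins bind whole cyclin and kinase complexes. Cdkn1a (p21) is a classic target of p53, and Cdkn2a encodes p16Ink4a and, from a separate first exon in another reading frame, p19Arf, which holds back the p53 inhibitor Mdm2. In tissues p21 and p16 are widely used as markers of senescent cells, which have left the cycle for good, and most hepatocytes of an adult liver rest outside the cycle.

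Cdkn1a and Cdkn2a are read from alternative starts. The RefSeq windows of 250 bases before to 50 after each start (GRCm38.p6, which is not the build of the counts) are shown for Cdkn1a and Cdkn2a, the genes that carry the p21 and p16 results. Windows were found for 6 of the 7 genes. Capitals in the upstream Cdkn1a window mark a match to the p53 consensus, with 1 mismatch and the conserved C and G of each repeat required. Elsewhere capitals mark GC boxes (GGGCGG, either strand) and, in the downstream Cdkn1a window, a TATA box (TATAA, sense strand).
Cdkn1a upstream start, chr17:29090729-29091028, plus strand: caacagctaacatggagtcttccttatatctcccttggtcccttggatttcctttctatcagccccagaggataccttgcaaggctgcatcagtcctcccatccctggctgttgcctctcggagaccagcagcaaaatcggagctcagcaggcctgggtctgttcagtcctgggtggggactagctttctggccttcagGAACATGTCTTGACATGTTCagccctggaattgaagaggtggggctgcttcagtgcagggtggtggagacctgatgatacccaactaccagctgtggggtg
Cdkn1a downstream start, chr17:29093519-29093818, plus strand: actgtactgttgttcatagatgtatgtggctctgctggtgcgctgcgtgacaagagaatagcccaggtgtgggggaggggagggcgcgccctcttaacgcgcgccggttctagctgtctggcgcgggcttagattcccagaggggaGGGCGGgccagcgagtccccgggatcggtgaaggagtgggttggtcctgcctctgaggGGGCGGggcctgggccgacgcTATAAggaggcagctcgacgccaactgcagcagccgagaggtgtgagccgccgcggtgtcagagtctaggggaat
Cdkn2a upstream start (p19Arf), chr4:89294570-89294869, minus strand: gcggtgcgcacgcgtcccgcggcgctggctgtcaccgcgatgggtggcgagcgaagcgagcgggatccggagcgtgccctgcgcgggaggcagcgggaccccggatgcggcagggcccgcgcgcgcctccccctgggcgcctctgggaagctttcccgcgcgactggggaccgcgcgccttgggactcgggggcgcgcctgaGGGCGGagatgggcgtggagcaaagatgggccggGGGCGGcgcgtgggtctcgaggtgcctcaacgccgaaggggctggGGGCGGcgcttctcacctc
Cdkn2a downstream start (p16Ink4a), chr4:89282143-89282442, minus strand: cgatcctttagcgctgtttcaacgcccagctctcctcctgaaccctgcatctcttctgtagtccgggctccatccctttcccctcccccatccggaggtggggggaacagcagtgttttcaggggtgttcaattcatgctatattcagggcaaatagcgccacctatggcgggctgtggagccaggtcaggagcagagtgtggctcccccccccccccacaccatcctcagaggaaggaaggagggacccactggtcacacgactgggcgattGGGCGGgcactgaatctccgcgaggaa
The p53 match began 51 bases before the upstream Cdkn1a start, and 22 of 32841 mouse windows (0.067%) held such a match. No window of another member did under this rule. GC boxes stood in 35.7% of all windows and TATAA in 17.5%. The marked motifs do not overlap each other. Reads were counted per gene, so the starts of a gene were counted together and p16Ink4a and p19Arf transcripts cannot be told apart.

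Library totals were 4201251 counts in old ouabain replicate 5 and 7527846 to 11113307 in the others. Levels are CPM, the counts of a gene relative to the total of its library, scaled by TMM, a factor that evens out library composition. Hepatocyte markers (7 genes) summed to a median of 119000 CPM in old ouabain livers, 120000 in old vehicle livers and 132000 in young livers, and all 7 were detected in every group. Most of this sum was Alb, which averaged 88300, 89200 and 96000 CPM in these groups. Calls are adjusted p below 0.05 in edgeR's quasi-likelihood test over all genes tested. Among the hepatocyte markers, Ttr was called lower in vehicle than in young livers (log2 fold change -0.48, edgeR adjusted p = 0.00444). Tat was called higher there (0.54, edgeR adjusted p = 0.049), and no hepatocyte marker was called in the other comparisons. The comparisons share groups: vehicle livers stand in 2 of them, and so do ouabain and young livers.

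In old vehicle against young livers, 3 of the 4 members tested rose (Cdkn1a, Cdkn1c and Cdkn2c) and none fell. Over all genes tested, 10.9% were called higher and 8.32% lower in that comparison. In old ouabain against old vehicle livers none of the 4 was called, with 0.991% of all genes called higher and 0.851% lower. At an unadjusted p below 0.05, 1 member (Cdkn1a) stood among 20.1% of all genes, and DESeq2 and limma voom with quality weights called none of the members (4.25% and 6.67% of all genes called). In old ouabain against young livers edgeR called none of the 4, with 0.738% of all genes called higher and 0.387% lower, and 2 (Cdkn1c and Cdkn2c) had an unadjusted p below 0.05, against 16.5% of all genes. The median log2 fold change of the 4 members was -0.11 for ouabain against vehicle, 0.71 for vehicle against young and 0.65 for ouabain against young, and that of all genes was -0.01 each time.

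**Figure D1:**
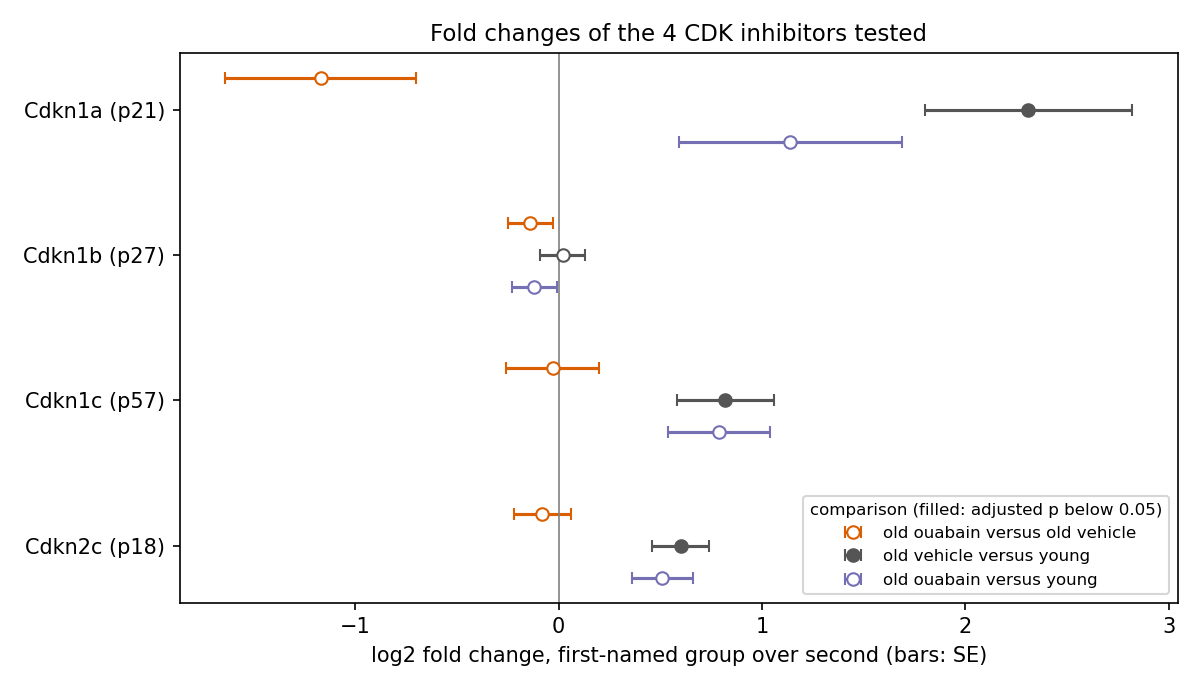
Log2 fold changes (x axis, bars are standard errors) of the 4 CDK inhibitors tested, in 3 comparisons with the first-named group on top of the fold. Filled points passed the threshold: Cdkn1a at 2.31, Cdkn1c at 0.82 and Cdkn2c at 0.60, all in old vehicle against young livers, while Cdkn1b stayed between -0.14 and 0.02.

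Cdkn1a (ENSMUSG00000023067) encodes p21, which stops cyclin and Cdk2 complexes and binds PCNA. It was at 1.39 (lowest), 3.15 (median) and 5.32 CPM (highest) in old ouabain livers, at 1.23, 6.63 and 18.7 CPM in old vehicle livers and at 0.696, 1.24 and 3.43 CPM in young livers. All 6 ouabain livers lay below the vehicle median and above the young median, and the ranges of all 3 groups overlapped. Within the vehicle group replicate 4 was highest, with the next at 8.44 CPM, and replicate 5 lowest, at the level of young livers.

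Old vehicle livers averaged 7.60 ± 6.00 CPM of Cdkn1a and young livers 1.53 ± 0.998 CPM (SD, n = 6 each), and Cdkn1a rose by 2.31 on the log2 scale (SE 0.51, edgeR adjusted p = 0.0047). The rise was 1.81 without old vehicle replicate 4 (edgeR adjusted p = 0.00816) and it passed in each of the 18 fits that left out 1 library. Only 0.731% of tested genes had a larger log2 fold change. Old ouabain livers averaged 3.24 ± 1.37 CPM, a log2 difference from vehicle of -1.17 (SE 0.47, 95% interval -2.16 to -0.17, unadjusted p = 0.024) that did not pass over all genes (edgeR adjusted p = 0.18). Without old vehicle replicate 4 that difference was -0.67 (edgeR adjusted p = 0.372). Against young livers the ouabain group differed by 1.14 (SE 0.55, edgeR adjusted p = 0.308). The coefficient of variation of Cdkn1a between livers was 42.2% in the ouabain group, 78.9% in the vehicle group and 65.0% in the young group.

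**Figure D2:**
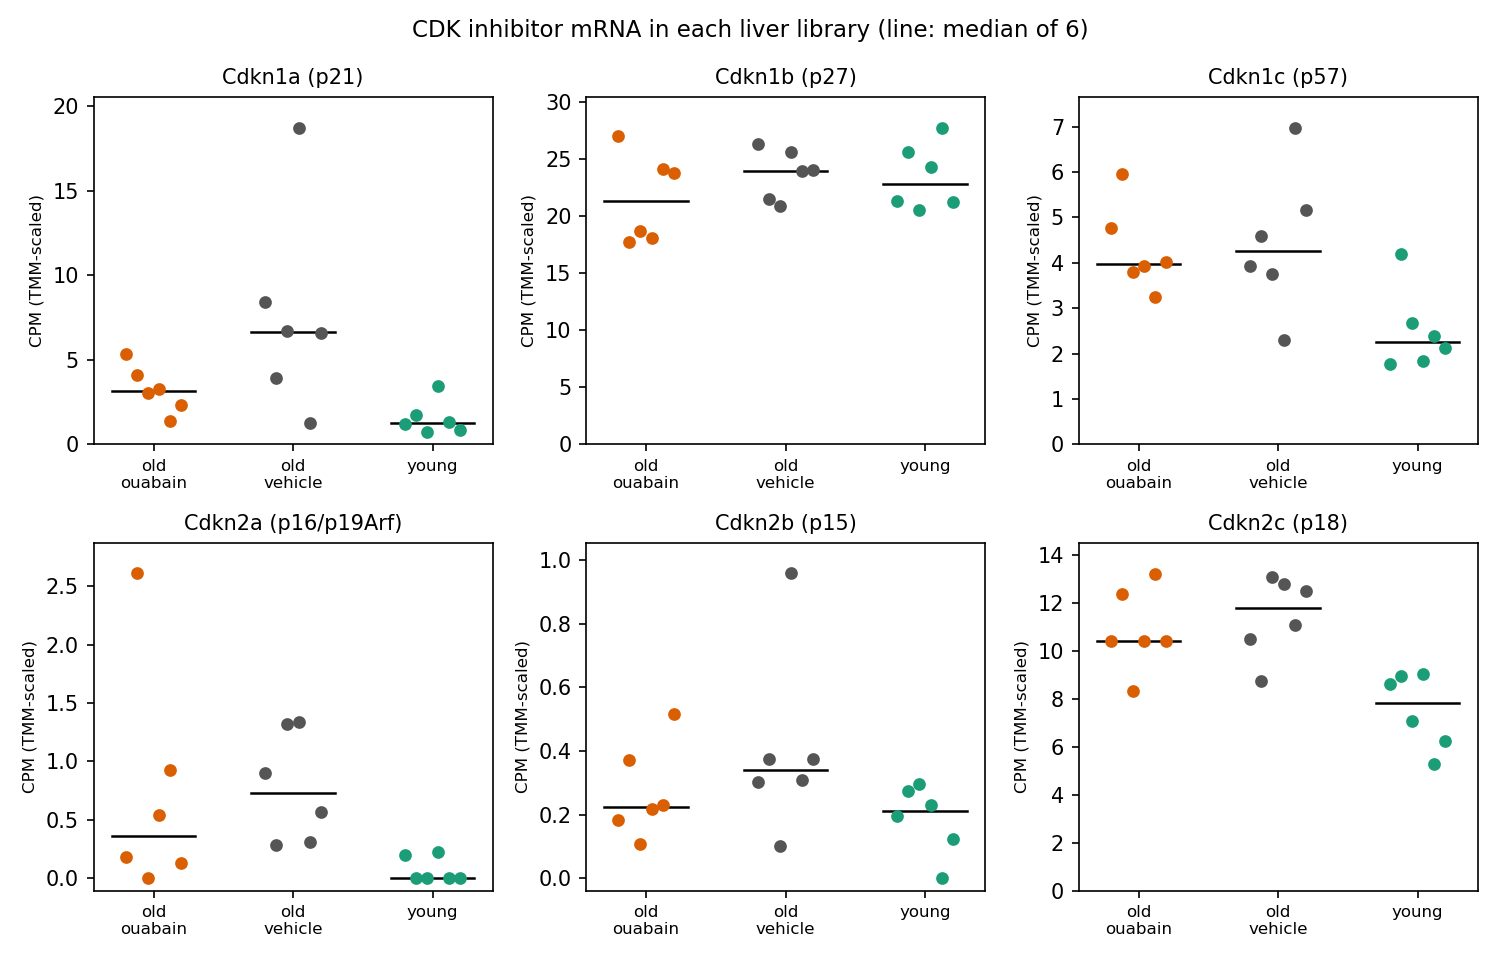
TMM-scaled CPM (y axis, from 0, or from just below 0 for Cdkn2a and Cdkn2b) of 6 CDK inhibitors in each library, by group, with replicates 1 to 6 from left to right and the median as a line. Cdkn1a in old vehicle replicate 4 (18.7 CPM) and Cdkn2a in old ouabain replicate 2 (2.61 CPM) stand above their groups, and 4 young libraries have no Cdkn2a count.

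Markers of several immune cell types were higher in old vehicle than in young livers, and between ouabain and vehicle livers edgeR called markers of monocyte-derived macrophages only. Of all genes tested, edgeR called 10.9% higher in vehicle than in young livers and 0.851% lower in ouabain than in vehicle livers. In ouabain against young livers 3 of 8 macrophage and 4 of 4 plasma cell markers were called higher, against 0.738% of all genes. No Kupffer cell, T cell or neutrophil marker was called there. In bulk tissue fewer cells of a type and less RNA per cell cannot be told apart. Markers of monocyte-derived macrophages (8 genes) summed to 80.6 to 254 CPM in ouabain livers, 143 to 381 CPM in vehicle livers and 45.3 to 73.9 CPM in young livers, with 3 of 8 lower in ouabain than in vehicle livers and 8 of 8 higher in vehicle than in young livers. Kupffer cell markers (6 genes) summed to 249 to 703, 306 to 1280 and 170 to 267 CPM in ouabain, vehicle and young livers, with 3 of 6 higher in vehicle than in young livers. None of these markers was at 0 in any group. Old vehicle replicate 4, the library highest in Cdkn1a, also had the highest macrophage sum (381 CPM), Kupffer sum (1280 CPM) and sum of the 20 S phase and mitosis genes described further on (248 CPM, with 81.7 to 112 CPM in the other vehicle livers). Its hepatocyte (138000 CPM) and endothelial (188 CPM) sums were also the highest of the vehicle group. Its stellate, plasma cell and T cell sums (131, 135 and 6.62 CPM) were not. Replicate 5, lowest in Cdkn1a, had 152 CPM of macrophage and 324 CPM of Kupffer cell markers, while replicate 6, with Cdkn1a near the group's median (6.58 CPM), had the lowest sums of both in vehicle livers (143 and 306 CPM). Endothelial markers (6 genes, 137 to 188, 132 to 188 and 150 to 198 CPM in ouabain, vehicle and young livers) and stellate cell markers (6 genes, 121 to 171, 120 to 173 and 102 to 194 CPM) had no member called in any comparison. Plasma cell markers (4 genes) summed to 49.3 to 157, 106 to 198 and 5.62 to 11.1 CPM in ouabain, vehicle and young livers, with 4 of 4 higher in vehicle than in young livers, and T cell markers (5 genes) to 2.93 to 9.75, 3.10 to 20.7 and 1.49 to 2.81 CPM, with 3 of 3 tested higher in vehicle than in young livers. Neutrophil markers (5 genes) summed to 10.6 to 21.3, 12.9 to 63.3 and 3.18 to 8.32 CPM, with 4 of 4 tested higher in vehicle than in young livers, the highest sum again in old vehicle replicate 4, and 1 marker at 0 in all vehicle and all young libraries. The part of any of these populations in the values of Cdkn1a and the other members was not tested.

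Cdkn1b (ENSMUSG00000003031) encodes p27, the inhibitor that holds Cdk2 in resting cells and is regulated largely through protein turnover. Its levels were 17.7, 21.3 and 27 CPM (lowest, median and highest) in old ouabain livers, 20.9, 23.9 and 26.3 CPM in old vehicle livers and 20.5, 22.8 and 27.7 CPM in young livers. The 3 ranges overlapped almost fully. Its coefficient of variation was the lowest of the members in vehicle livers (9.17%) and young livers (12.3%), while in ouabain livers it was 18.2%, against 15.9% for Cdkn2c. Its log2 fold change was -0.14 for ouabain against vehicle (95% interval -0.37 to 0.09, edgeR adjusted p = 0.506), 0.02 for vehicle against young (-0.21 to 0.25, edgeR adjusted p = 0.943) and -0.12 for ouabain against young (-0.36 to 0.11, edgeR adjusted p = 0.623).

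Cdkn1c (ENSMUSG00000037664) encodes p57, an imprinted inhibitor expressed from the maternal allele that restrains growth in the embryo. It was at 3.25, 3.97 and 5.96 CPM in old ouabain livers, 2.30, 4.26 and 6.97 CPM in old vehicle livers and 1.76, 2.25 and 4.20 CPM in young livers. All 6 libraries of each old group lay above the young median, and young replicate 2 alone among the young livers exceeded 2.68 CPM. Old vehicle livers averaged 4.45 ± 1.57 CPM and young livers 2.50 ± 0.903 CPM (SD, n = 6 each), and Cdkn1c rose by 0.82 on the log2 scale (SE 0.24, edgeR adjusted p = 0.0221). The call was lost without old vehicle replicate 5 (0.65, edgeR adjusted p = 0.0662) or young replicate 4 (0.74, edgeR adjusted p = 0.0518). Old ouabain livers averaged 4.28 ± 0.953 CPM, a log2 difference of -0.03 from vehicle (95% interval -0.52 to 0.46, edgeR adjusted p = 0.958) and of 0.79 from young (SE 0.25, edgeR adjusted p = 0.123). The difference from young passed without young replicate 2 (edgeR adjusted p = 0.0439).

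Cdkn2c (ENSMUSG00000028551) encodes p18, the INK4 protein with the most counts here. It was at 8.34, 10.4 and 13.2 CPM in old ouabain livers, 8.73, 11.8 and 13.1 CPM in old vehicle livers and 5.30, 7.83 and 9.04 CPM in young livers. The lowest old library of each old group lay below the highest young one, so the groups overlapped by their edges. Old vehicle livers averaged 11.4 ± 1.67 CPM and young livers 7.53 ± 1.57 CPM (SD, n = 6 each), and Cdkn2c rose by 0.60 (SE 0.14, edgeR adjusted p = 0.00568), a call kept in each of the 18 fits without 1 library. Old ouabain livers averaged 10.9 ± 1.73 CPM, a log2 difference from vehicle of -0.08 (95% interval -0.38 to 0.21, edgeR adjusted p = 0.774) and from young of 0.51 (SE 0.15, edgeR adjusted p = 0.0903). The difference from young passed with voom quality weights (0.53, adjusted p = 0.0488), which called 1 of the 4 members and 3.64% of all genes, and in edgeR without young replicate 1 (adjusted p = 0.0463).

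Cdkn2a (ENSMUSG00000044303, p16Ink4a and p19Arf together) was below the filter on low counts. Its counts were 2, 28, 0, 5, 4 and 1 in old ouabain replicates 1 to 6, 9, 3, 13, 14, 3 and 6 in old vehicle replicates and 2, 0, 0, 2, 0 and 0 in young replicates. Every vehicle liver had Cdkn2a counts and exceeded every young liver, the ouabain livers spanned the range from 0 to the highest value of the series, and 4 young libraries had no count. The margin was narrow: the lowest vehicle livers had 3 counts (0.282 and 0.308 CPM) and the highest young livers 2 (0.196 and 0.229 CPM). A count of 0 allows 3 counts, which is 0.274 to 0.374 CPM in the young libraries, and this limit covers counting error only. The lowest vehicle values lay within that range. Old vehicle livers averaged 0.786 ± 0.477 CPM and young livers 0.0708 ± 0.110 CPM (SD, n = 6 each). An exact two-sided permutation test over libraries gave p = 0.00216, the smallest that 924 arrangements allow, and the ratio of summed counts, corrected for library size, was 11.2 (95% interval 4.10 to 42.8, counting error only). Among 6 such permutation tests on Cdkn2a and Cdkn2b the p-values are not adjusted. Cdkn2a was also called in this comparison by edgeR without a filter on low counts (3.25, adjusted p = 0.0408, with 10.7% of all genes called) and by DESeq2 (3.48, adjusted p = 0.0085, 17.1% called).

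Old ouabain livers averaged 0.732 ± 0.978 CPM of Cdkn2a (SD, n = 6), and the exact permutation p was 0.916 against vehicle and 0.0736 against young livers. The corrected ratio of summed counts was 0.98 for ouabain against vehicle (95% interval 0.628 to 1.52, counting error only, without the spread between livers). Replicate 2 held 70.0% of the ouabain counts. Without it the ouabain livers had 12 counts and averaged 0.357 ± 0.378 CPM (SD, n = 5), with an exact permutation p of 0.134 against vehicle and 0.108 against young livers. The ratio to vehicle was then 0.371 (95% interval 0.179 to 0.708), an interval of counting error alone that leaves out the spread between livers. Against young livers the permutation p passed 0.05 without ouabain replicate 1 (exact p = 0.0411), 3 (exact p = 0.013) or 6 (exact p = 0.039), and DESeq2 called Cdkn2a (3.38, adjusted p = 0.0491) where it called 2.76% of all genes, whereas edgeR without a filter did not (3.19, adjusted p = 0.195). Ouabain replicate 2 also had the highest macrophage (254 CPM), Kupffer (703 CPM) and B cell (43.7 CPM) marker sums of the ouabain group, next to 80.6 to 170, 249 to 421 and 4.25 to 15.8 CPM in the other ouabain livers. Old vehicle replicate 2, with sums of 230, 793 and 27.4 CPM, had the lowest Cdkn2a of the vehicle group (0.282 CPM). Old vehicle replicate 4, with 381, 1280 and 16.2 CPM, had the highest (1.34 CPM). The part of these cells in the Cdkn2a counts was not tested.

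Cdkn2b (ENSMUSG00000073802) encodes p15, an INK4 protein induced by TGF-beta whose gene lies beside Cdkn2a. It had 14 counts in all ouabain libraries, 25 in the vehicle libraries and 11 in the young libraries. Levels were 0.108 to 0.518 CPM (median 0.225), 0.101 to 0.959 CPM (median 0.342) and 0 to 0.298 CPM (median 0.212) in ouabain, vehicle and young livers. The groups overlapped in all pairs, and most values lay near the level of 3 counts. Exact two-sided permutation tests gave p = 0.403 for ouabain against vehicle, 0.0758 for vehicle against young and 0.294 for ouabain against young livers. The mean difference of vehicle against young livers was 0.217 CPM. It passed in 1 of 12 comparisons without 1 library, that without old vehicle replicate 3 (0.277 CPM, exact permutation p = 0.00216), and was 0.105 CPM without old vehicle replicate 4 (exact permutation p = 0.145). The p without replicate 3 is the smallest those libraries allow, but it rests on a tie in reads. The lowest vehicle liver left (replicate 1, 0.302 CPM) and the highest young liver (replicate 3, 0.298 CPM) both had 3 counts, and library size alone ordered them.

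Scaled by exon length (GENCODE M21, CPM per kb), Cdkn1b and Cdkn2c led in every group, at 4.74 and 4.04 in old ouabain livers, 5.21 and 4.26 in old vehicle livers and 5.14 and 2.80 in young livers. In ouabain livers Cdkn1b and Cdkn2c differed by less than the SD of Cdkn1b (0.863) but by more than that of Cdkn2c (0.643), and in vehicle and young livers by more than either SD. Cdkn1c followed at 2.10, 2.18 and 1.22 CPM per kb in ouabain, vehicle and young livers. Cdkn1a was at 0.912 in ouabain livers, 2.14 in vehicle livers and 0.432 in young livers, so in vehicle livers it lay within its SD (1.69) of Cdkn1c. Cdkn2a (0.624, 0.671 and 0.0604) and Cdkn2b (0.196, 0.290 and 0.134) were lowest, and in young livers Cdkn2a lay below Cdkn2b by less than the SD of either (0.0940 and 0.0792). In ouabain livers Cdkn1a and Cdkn2a also differed by less than the SD of Cdkn2a (0.835).

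**Figure D3:**
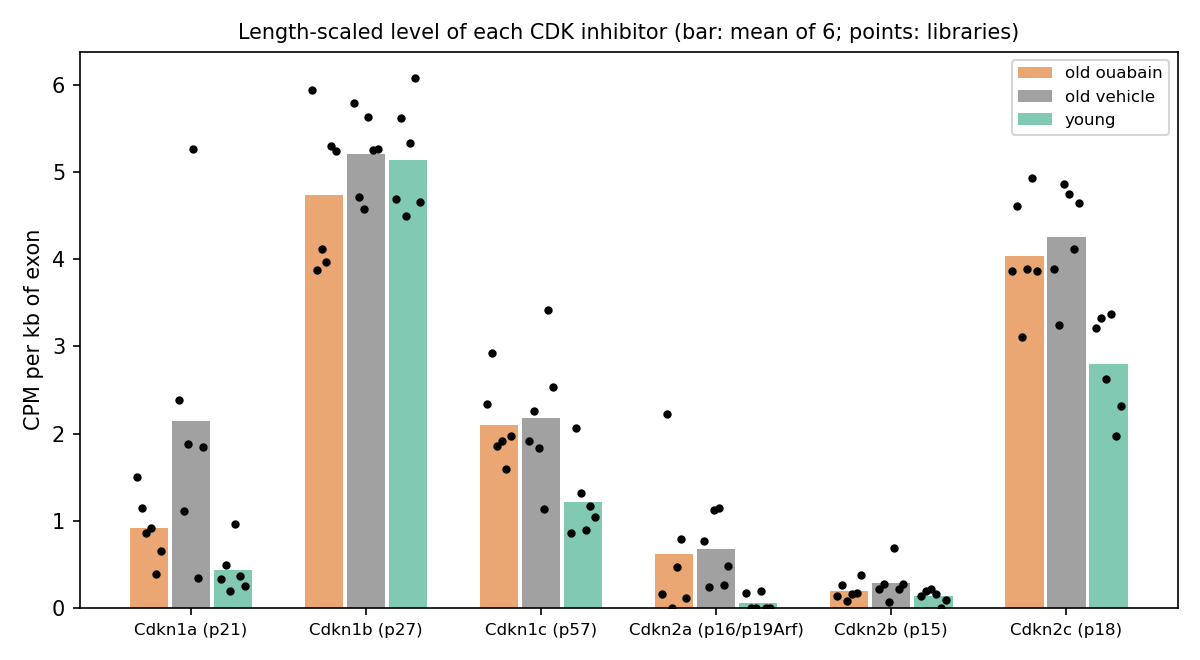
Length-scaled level (CPM per kb of exon, linear axis from 0) of 6 CDK inhibitors, with bars for the mean of 6 libraries and points for libraries, in old ouabain, old vehicle and young livers from left to right. Cdkn1b and Cdkn2c are the highest in each group, and Cdkn2a is near 0 in young livers (0.0604).

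Lists of genes around the inhibitors were examined next, beginning with G1 cyclins and kinases. For the gene lists that follow, the shares of all tested genes called by edgeR were 0.991% higher and 0.851% lower in ouabain against vehicle livers, and 10.9% higher and 8.32% lower in vehicle against young livers. In ouabain against young livers they were 0.738% and 0.387%. In either direction DESeq2 called 4.25%, 17.1% and 2.76% of all genes in these 3 comparisons. Voom called 6.67% in ouabain against vehicle and 3.64% in ouabain against young livers, and its share in vehicle against young livers was not counted. How many of all tested genes had groups without overlap was not counted, so a lack of overlap only describes the gene named. Of 11 G1 cyclin and kinase genes tested, 1 rose in old vehicle against young livers, close to the 10.9% of all genes. It was Ccnd2 (cyclin D2), with 12.9 ± 4.87 CPM in vehicle livers and 8.10 ± 1.71 CPM in young ones (0.67, edgeR adjusted p = 0.0303). That call was lost in 5 of 18 fits (without old vehicle replicate 2, 3 or 4, or young replicate 1 or 3, adjusted p 0.0504 to 0.0831). Cdk4, a target of INK4 proteins, was at 32.7 ± 2.06 CPM in ouabain livers, 31.7 ± 2.50 CPM in vehicle livers and 32.4 ± 3.94 CPM in young livers, and its partner in function Cdk6 at 3.33, 3.22 and 3.99 CPM. No gene of this list was called between ouabain and vehicle livers by edgeR, DESeq2 or voom (2 had an unadjusted edgeR p under 0.05, against 20.1% of all genes). Of 13 RB and E2F genes, edgeR and DESeq2 called none in any comparison (2, 3 and 2 had an unadjusted edgeR p under 0.05 in ouabain against vehicle, vehicle against young and ouabain against young livers). Of all genes, 20.1% did in the first of these comparisons and 16.5% in the last, and the share in vehicle against young livers was not counted. With voom quality weights, Rbl1, which encodes the RB relative p107, was lower in ouabain than in vehicle livers (-0.87, adjusted p = 0.0333), and E2f5 was lower in ouabain than in young livers (-0.57, adjusted p = 0.0355). In edgeR Rbl1 differed by -0.73 (adjusted p = 0.119), or -0.96 without ouabain replicate 1 (adjusted p = 0.0422). Rb1, the retinoblastoma gene, differed by -0.40 between ouabain and vehicle livers (edgeR adjusted p = 0.129) and by 0.31 between vehicle and young livers (edgeR adjusted p = 0.132), and E2f1 by 0.62 between vehicle and young livers (edgeR adjusted p = 0.0847).

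Genes of S phase and mitosis, the steps that the inhibitors hold back, had 2 of 16 tested members higher in old vehicle than in young livers, close to the 10.9% of all genes. Between ouabain and vehicle livers none was called by edgeR, DESeq2 or voom (3 had an unadjusted edgeR p under 0.05, against 20.1% of all genes). Mki67, a marker of cycling cells, averaged 9.73 ± 8.86 CPM in vehicle livers and 2.72 ± 1.54 CPM in young ones (1.81, edgeR adjusted p = 0.0137), or 1.16 without old vehicle replicate 4 (edgeR adjusted p = 0.0229). Pcna, the DNA clamp that p21 binds, averaged 32.4 ± 3.41 CPM in vehicle livers and 24.8 ± 1.98 CPM in young ones, which did not overlap (0.39, edgeR adjusted p = 0.00605). Top2a and Ccna2 differed by 1.11 and 1.16 without passing (edgeR adjusted p = 0.149 and 0.145), and by 0.39 and 0.32 without old vehicle replicate 4 (edgeR adjusted p = 0.532 and 0.616). The list's median log2 fold change was -0.24 for ouabain against vehicle and 0.63 for vehicle against young.

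Of 19 p53 regulators and targets tested besides Cdkn1a, 6 rose and none fell in old vehicle against young livers. The smallest adjusted p-values belonged to Phlda3, an inhibitor of Akt (2.60 ± 0.672 CPM in vehicle and 0.865 ± 0.322 CPM in young livers, 1.58, edgeR adjusted p = 0.000235), to Pmaip1, which encodes the death protein Noxa (1.55, edgeR adjusted p = 0.00538), to Ccng1, cyclin G1 (0.31, edgeR adjusted p = 0.0141), and to Trp53inp1 (0.87, edgeR adjusted p = 0.0143). The first 3 did not overlap between vehicle and young livers, a trait whose share over all tested genes was not counted. The other 2 were Btg2 (0.85, edgeR adjusted p = 0.0366), which lost its call in 8 of 18 fits without 1 library (vehicle replicates 1, 3, 4 and 5 and young replicates 1, 3, 5 and 6, adjusted p up to 0.0868) and under 4 of 8 other settings, and Ei24 (0.26, edgeR adjusted p = 0.0453), which lost it in 11 of 18 fits (ouabain replicates 3 to 5, vehicle replicates 1, 2, 3 and 6 and young replicates 2, 4, 5 and 6, adjusted p up to 0.0961) and under 2 of 8 other settings. Without old vehicle replicate 4 the value of Pmaip1 was 1.08 (edgeR adjusted p = 0.0146). Trp53 itself averaged 16.0 ± 1.96 CPM in vehicle livers and 15.9 ± 1.86 CPM in young ones, and Mdm2 at 24.3 ± 2.67 and 24.0 ± 0.976 CPM, both without a call. The list's median was 0.12, near that of all genes (-0.01).

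Between ouabain and vehicle livers 1 of the 19 p53 genes was called by edgeR, 3 by DESeq2 (with Ccng1 at -0.29 and Btg2 at -0.85, adjusted p = 0.0443 and 0.0362) and 2 by voom (with Ccng1 at -0.30, adjusted p = 0.0336). Of all genes, edgeR called 0.991% higher and 0.851% lower there, DESeq2 4.25% and voom 6.67%. Trp53inp1, a p53 target with a role in autophagy and cell death, was at 49.0 ± 15.7 CPM in ouabain livers and 108 ± 27.7 CPM in vehicle livers (SD, n = 6 each) and fell by 1.14 on the log2 scale (edgeR adjusted p = 0.0225), with all 6 ouabain livers below the vehicle median. The call was lost without ouabain replicate 3, 4 or 6 (adjusted p 0.0598, 0.0602 and 0.0581). Phlda3 differed by -0.41 (edgeR adjusted p = 0.325) and was called higher in ouabain than in young livers, at 1.95 ± 0.412 against 0.865 ± 0.322 CPM (1.17, edgeR adjusted p = 0.0308), although that call was lost in 8 of 18 fits (ouabain replicates 2, 4, 5 and 6 and young replicates 2 to 5, adjusted p 0.0502 to 0.114).

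**Figure D4:**
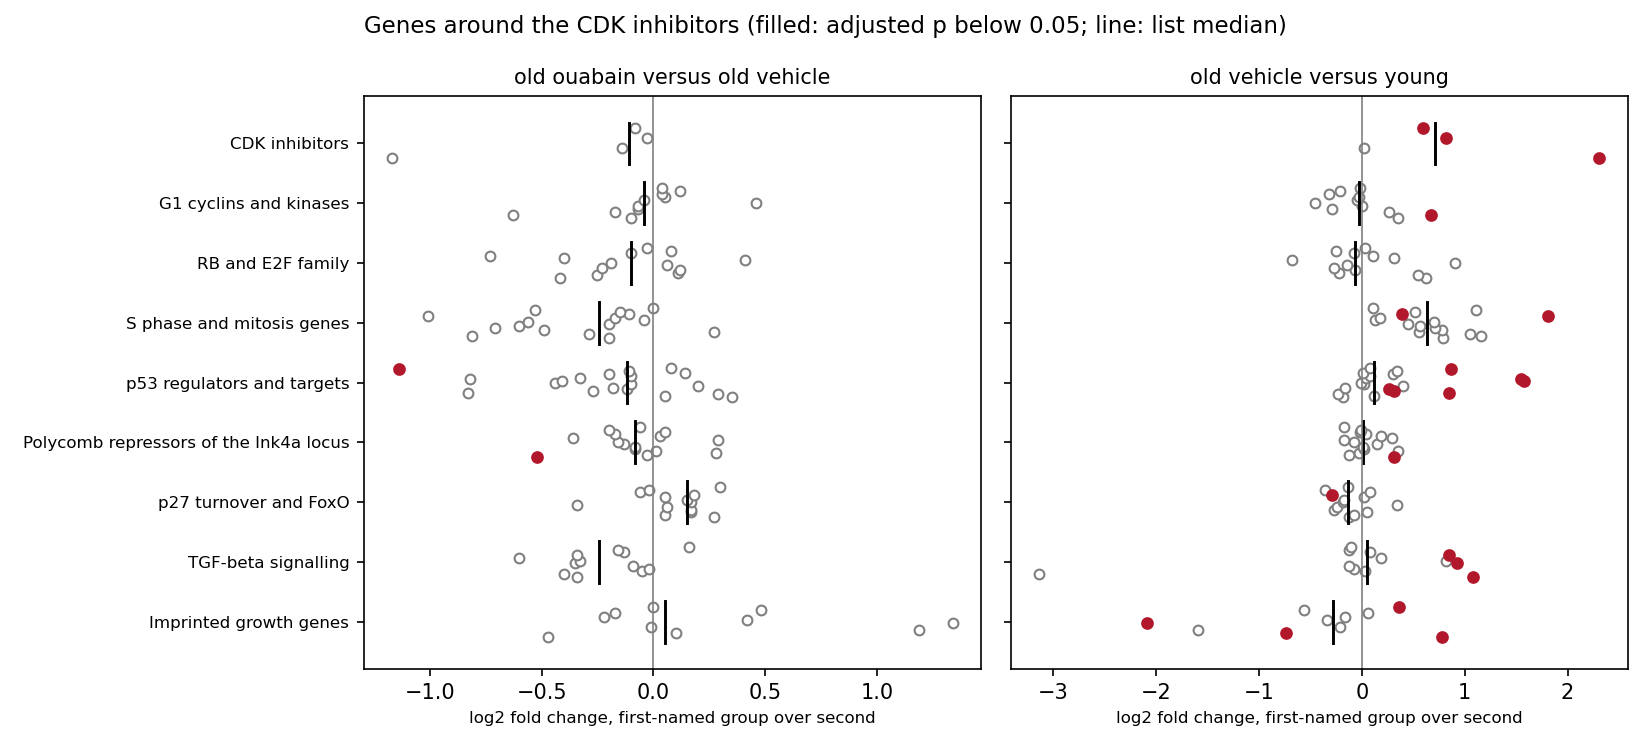
Log2 fold changes (x axis) of the tested genes of 9 lists around the CDK inhibitors, for old ouabain against old vehicle (left) and old vehicle against young livers (right), with filled points past the threshold and a line at each list's median. Bmi1 and Trp53inp1 are the filled points on the left, and on the right the CDK inhibitors have 3 filled points above 0.

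Polycomb proteins silence the Cdkn2a and Cdkn2b locus. Of 15 Polycomb genes, 1 fell in ouabain against vehicle livers and the same gene was the 1 that rose in vehicle against young livers, namely Bmi1, a subunit of Polycomb repressive complex 1 whose loss releases Cdkn2a in mice. Bmi1 was at 15.8 ± 1.12 CPM in ouabain livers, 22.7 ± 2.82 CPM in vehicle livers and 18.3 ± 1.07 CPM in young livers (SD, n = 6 each). It fell by 0.52 with ouabain (edgeR adjusted p = 0.00462) and rose by 0.31 in vehicle against young livers (edgeR adjusted p = 0.0128), with no overlap in either pair and both calls kept in each of the 18 fits without 1 library. Against young livers the ouabain group differed by -0.20 (edgeR adjusted p = 0.243). Ezh2, the methyltransferase of Polycomb repressive complex 2, differed by -0.08 between vehicle and young livers (edgeR adjusted p = 0.834).

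Among 13 genes of p27 turnover and FoxO signalling, Rnf123, part of a ubiquitin ligase for p27, was lower in vehicle than in young livers, at 42.5 ± 4.05 CPM against 52.2 ± 6.73 CPM (-0.29, edgeR adjusted p = 0.0389). That call was lost in 7 of 18 fits (old vehicle replicates 1, 2, 5 and 6 and young replicates 3 to 5, adjusted p 0.0648 to 0.102). Foxo1, which can raise Cdkn1b, differed by 0.34 (edgeR adjusted p = 0.0804) and Skp2, the ligase subunit that marks p27 for breakdown, by -0.36 (edgeR adjusted p = 0.323). DESeq2 and voom also called Cul1, the scaffold of that ligase's complex, lower in vehicle than in young livers (-0.25 in both, adjusted p = 0.0430 and 0.0451). No gene of the list was called between ouabain and vehicle livers by edgeR, DESeq2 or voom (2 had an unadjusted edgeR p under 0.05, against 20.1% of all genes).

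Of 12 TGF-beta genes, the pathway that induces Cdkn2b, 3 rose in vehicle against young livers. In ouabain against vehicle livers edgeR, DESeq2 and voom called none (0 had an unadjusted edgeR p under 0.05, against 20.1% of all genes). The 3 were the feedback inhibitor Smad7 (0.93, edgeR adjusted p = 0.018), Myc, which TGF-beta can repress (1.08, edgeR adjusted p = 0.0233), and the ligand Tgfb3 (0.85, edgeR adjusted p = 0.0277). Myc lost its call without old vehicle replicate 1 (0.0735) or young replicate 3 (0.0573) or 5 (0.0521), and Tgfb3 without old vehicle replicate 2 (0.0511) or 4 (0.0701) or young replicate 3 (0.0598) or 6 (0.0553), values that are adjusted p in edgeR. Tgfb1 differed by 0.82 (edgeR adjusted p = 0.0674) and was called by DESeq2 (0.81, adjusted p = 0.0369).

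Genes listed as imprinted growth genes, the class to which Cdkn1c belongs, went in both directions. Whether each listed gene is imprinted in liver was not tested. Of 10 tested, 2 rose and 2 fell in vehicle against young livers. Dcn (decorin, a matrix protein) averaged 230 ± 43.3 CPM in vehicle livers and 134 ± 24.2 CPM in young ones (0.78, edgeR adjusted p = 0.000342), and Slc22a18, a neighbour of Cdkn1c, differed by 0.36 (edgeR adjusted p = 0.0468), a call lost in 12 of 18 fits with adjusted p up to 0.132 (those without ouabain libraries 2, 3, 4 and 6, vehicle libraries 1, 2, 3 and 5, or young libraries 3 to 6). Meg3, a long noncoding RNA, fell by 2.09 on the log2 scale (0.725 ± 0.724 CPM in vehicle and 3.17 ± 0.837 CPM in young livers, edgeR adjusted p = 0.000888), and Grb10, an adaptor that damps insulin signalling, fell by 0.74 (edgeR adjusted p = 0.00189). Mest differed by -0.34 (edgeR adjusted p = 0.454). Between ouabain and vehicle livers edgeR called none (2 had an unadjusted p under 0.05, against 20.1% of all genes). DESeq2 and voom each called 2 there, where they called 4.25% and 6.67% of all genes. Dcn differed by -0.47 (edgeR adjusted p = 0.0654), or -0.47 in DESeq2 (adjusted p = 0.0226) and -0.51 with voom (adjusted p = 0.0135), and it passed in 4 of 18 edgeR fits (without ouabain replicate 1, vehicle replicate 4 or 6, or young replicate 2, adjusted p 0.0342 to 0.0431). Meg3 was higher in ouabain than in vehicle livers in DESeq2 (1.36, adjusted p = 0.0291) and with voom (1.46, adjusted p = 0.0450). In ouabain against young livers edgeR called Grb10 lower (-0.65, adjusted p = 0.0431), where it called 0.387% of all genes lower. That call was kept in only 6 of 18 fits without 1 library. Voom also called Slc22a18 higher there (0.44, adjusted p = 0.0264), with 3.64% of all genes called in either direction.

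The genes whose values followed each member most closely from liver to liver were ranked by Pearson correlation of log2 CPM over 18 libraries after group means were subtracted, among 11892 named genes. These are descriptions, and all points of a library share its depth and cell content. Cdkn1a was followed by Lrfn3 (r = 0.87), a synaptic adhesion protein, Klhdc8a (0.86) and Nfil3 (0.86), a transcription factor of the circadian clock and of cytokine responses. Without old vehicle replicates 5 and 4, the extremes of Cdkn1a, r was 0.69, 0.67 and 0.77. Nfil3 averaged 17.4 ± 5.70 CPM in ouabain livers, 22.4 ± 8.43 CPM in vehicle livers and 18.1 ± 5.33 CPM in young livers, with no call in any comparison. Klhdc8a was at 2.62 ± 0.646, 3.52 ± 1.81 and 1.82 ± 0.534 CPM in the same groups and was called higher in vehicle than in young livers (0.95, edgeR adjusted p = 0.0278).

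**Figure D5:**
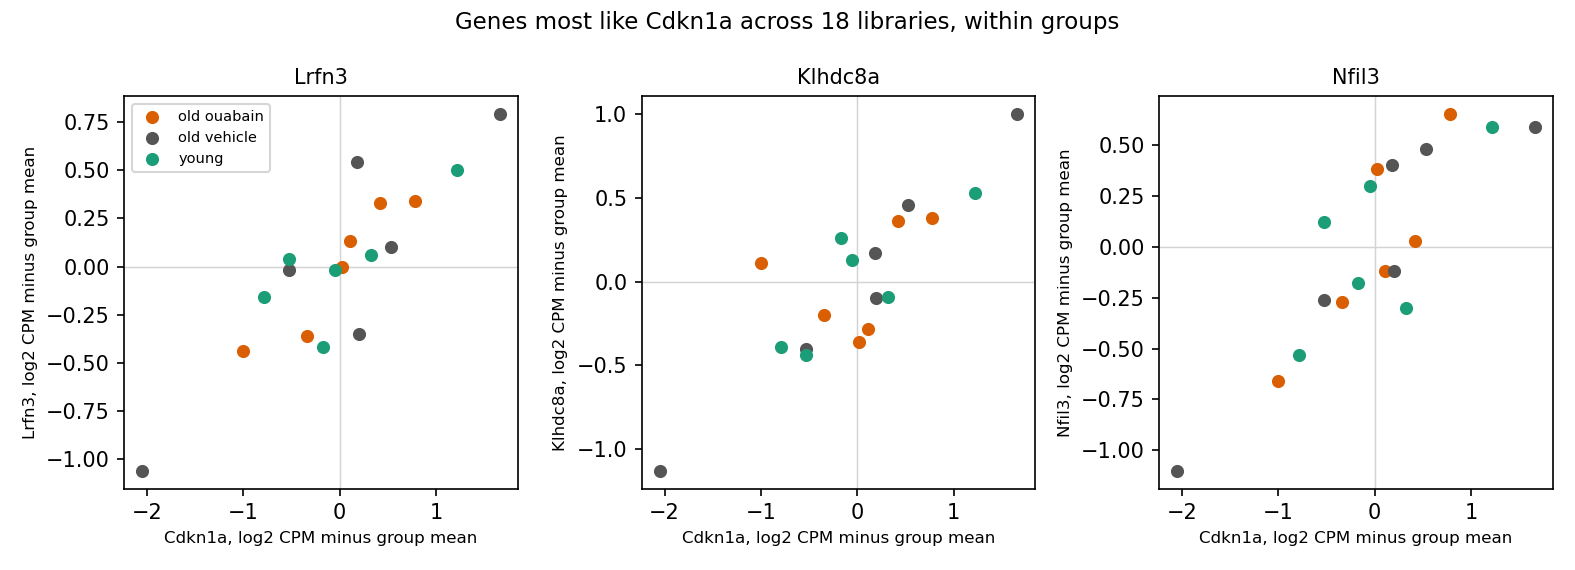
Log2 CPM minus the group mean of Lrfn3, Klhdc8a and Nfil3 (y axes) against that of Cdkn1a (x axis), with 1 point for each of 18 libraries coloured by group. The vehicle livers hold both ends of the x axis, and r is 0.87, 0.86 and 0.86.

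Cdkn1b was followed by Glt28d2 (r = 0.92), Suz12, a subunit of Polycomb repressive complex 2 (0.84), and Hnrnpu (0.83), and without old ouabain replicates 1 and 2 these were 0.89, 0.78 and 0.78. Cdkn1c was followed by Ccbe1 (0.81), a secreted protein needed for lymphatic vessels, and Fat4 (0.80), a giant cadherin, or 0.63 and 0.67 without young replicate 2 and old vehicle replicate 5. Fat4 was lower in vehicle than in young livers (-1.06, edgeR adjusted p = 0.0108), where Cdkn1c was higher. Cdkn2c was followed by Rfc4, which loads the PCNA clamp (0.83), Plgrkt, a plasminogen receptor (0.81), and Tcf3, a transcription factor (0.79), or 0.81, 0.72 and 0.74 without young replicate 5 and old vehicle replicate 2. The 4 members were not close to each other: r between pairs ran from -0.42 (Cdkn1a with Cdkn1c) to 0.26 (Cdkn1a with Cdkn2c) over the 18 libraries.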

How the data were processed

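Livers of 18 mice were sequenced, 1 library per sample title, with 6 libraries per group. The authors deposited raw read counts per Ensembl gene, not normalized, in 1 table whose columns carry the sample titles. Alignment to mm9 used TopHat2 2.0.11 and counting used featureCounts, per the submitters' processing notes. The sources used here state neither the strand setting, the annotation release nor the handling of shared reads, so overlapping and antisense genes cannot be separated with certainty. Nothing in the labels gives a batch. That replicates are separate animals is read from the design text, and p-values measure the spread between these samples.

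Counts were analysed as deposited in R 4.3.3 with edgeR 4.0.16 (filter for 3 groups with minimum count 10, TMM, 1 fit of all 18 libraries, robust quasi-likelihood F-test, two-sided, Benjamini-Hochberg over 14226 genes, threshold 0.05). Standard errors were approximated from the fold change and its F statistic, and 95% intervals from them with the t distribution. The fit was also tested on simulated data. Members below the filter were compared by exact permutation over libraries, and ratios of summed counts have exact binomial 95% intervals. A count of 0 allows 3 counts (0.274 to 0.696 CPM over the libraries). Alternatives were RLE factors, no filter, at least 1 CPM in 6 or more libraries, voom with quality weights (limma 3.58.1), DESeq2 1.42.0, only the 12 libraries compared, a replicate block, CPM by library total and leaving out libraries. Correlations were taken on log2 CPM (prior count 2).

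Members and gene lists were chosen with earlier results of these data known. All members are named. Of each list up to 4 genes with the smallest adjusted p past the threshold and up to 2 others are named, and for each tested member the 3 most correlated genes without predicted names. 1 result among them is not reported here. Symbols came from a gene name table (32897 identifiers matched). Promoters came from RefSeq (GRCm38.p6) and exon lengths from GENCODE M21, which are of another build than the counts. Same-numbered libraries of different groups had correlations of their deviations of -0.14 to 0.16. These show no pairing by number, but could not detect one with little effect on expression.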

Additional observations from a re-analysis of the deposited data

Results flagged for a closer look

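In the test for a library far from its group (Dixon's ratio, run on 18 groups of 6 libraries, where chance alone marks about 1 group in 20), 2 values stood apart. Cdkn2a in old ouabain replicate 2 was at 2.61 CPM (28 counts), with the next ouabain liver at 0.929 CPM. Cdkn2b in old vehicle replicate 4 was at 0.959 CPM, with the next vehicle liver at 0.376 CPM. Cdkn1a in old vehicle replicate 4 (18.7 CPM, ratio 0.587) and in young replicate 4 (3.43 CPM, ratio 0.620) stayed below the critical ratio.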

How the results depend on the processing

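Of the members tested, Cdkn1a and Cdkn2c in old vehicle against young livers kept their direction and call under every alternative run. No alternative called a member between ouabain and vehicle livers. The number of members called in ouabain against young livers was 1 with voom quality weights (Cdkn2c) and 0 to 1 without single libraries, and in vehicle against young livers it was 2 to 3 without single libraries. Between ouabain and vehicle livers edgeR, DESeq2 and voom called 1, 3 and 2 of the 19 p53 genes, 0, 2 and 2 of the 10 imprinted genes and 0, 0 and 1 of the 13 RB and E2F genes. Of all genes, edgeR called 0.991% higher and 0.851% lower in that comparison, DESeq2 4.25% and voom 6.67%. Values near 0 changed sign. The replicate block gave 0 (log2, adjusted p = 0.999) for Cdkn1c in ouabain against vehicle livers, and it changed no call of a member, while Phlda3 in ouabain against young livers lost its call (adjusted p = 0.0787), as did Grb10 in the same comparison (0.0802) and Btg2 in vehicle against young livers (0.0775). With vehicle library 4 and ouabain library 5 both left out, vehicle against young gave -0.01 for Cdkn1b and Mdm2 and -0.05 for Trp53 (log2), and Cdkn2a differed by 0.0176 CPM between ouabain and vehicle livers. In vehicle against young livers voom quality weights gave -0.01 for Mdm2 and 0 for Trp53, and the fit without a filter 0 for Trp53. Without single libraries, Cdkn1c ran from -0.16 to 0.13 in ouabain against vehicle livers, and in vehicle against young livers Cdkn1b and Mdm2 each ran from -0.02 to 0.07, Cdk4 from -0.08 to 0.02 and Trp53 from -0.05 to 0.06. The Cdkn2a difference ran from -0.429 to 0.092 CPM for ouabain against vehicle and from 0.286 to 0.807 CPM for ouabain against young, and the Cdkn2b difference from 0.105 to 0.277 CPM for vehicle against young. Without subtraction of group means, 1, 1, 0 and 0 of the 3 genes most like Cdkn1a, Cdkn1b, Cdkn1c and Cdkn2c were the same. Over all results compared, the settings other than single libraries were held the same in 448, with 20 calls lost, 5 gained and 8 directions reversed. Leaving out single libraries gave 1002 held the same, with 75 lost, 15 gained and 22 reversed. The number of members called or the set of most correlated genes moved in 5 and 2 further results. A change in the number of members called from 3 to 2 was held the same. The cause of these changes was not tested. Depth limits Cdkn2a and Cdkn2b most, with at most 48 counts in any group.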

Other observations

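Cdkn1a and Cdkn1c took opposite ends of the old vehicle group in 2 livers. Replicate 4 had the highest Cdkn1a (18.7 CPM) and the lowest Cdkn1c (2.30 CPM), and replicate 5 the lowest Cdkn1a (1.23 CPM) and the highest Cdkn1c (6.97 CPM). Over all 18 libraries, with group means subtracted, Pearson r was -0.42 and Spearman rho -0.10.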
